A study of Mus musculus with 12 samples.

Results

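The genes described here handle iron and heavy metals in mouse neutrophils. They are 10 genes chosen by symbol, Fth1, Ftl1, Tfrc, Slc11a1, Slc11a2, Slc40a1, Ireb2, Aco1, Mt1 and Mt2, and all 10 were found among the 29737 genes of the deposited count table. Neutrophils were taken from the bone marrow of wild-type mice, which per the study's methods were female C57BL/6 mice, enriched with magnetic beads and described in the labels as Ly6G+. They were cultured for 24 h in RPMI medium with FBS and 1 of 4 additions, PBS as the vehicle, taurocholic acid (TCA, 200 µM), glycocholic acid (GCA, 200 µM) or tauro-β-muricholic acid (Tβ-MCA, 10 µM in the labels), with 3 samples per group. The study's methods give Tβ-MCA the same dose as the other bile acids, so its true dose is uncertain here. The PBS samples are numbered 3, 5 and 6 in the labels and those of every bile acid 3, 4 and 5, and since nothing says that they came from separate mice, the p-values below measure only the spread between these samples.

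Iron inside cells is stored in ferritin, a shell of heavy chains (Fth1), which oxidize iron, and light chains (Ftl1). It enters through the transferrin receptor (Tfrc) and the divalent metal transporter DMT1 (Slc11a2), and it leaves through ferroportin (Slc40a1), the known cellular iron exporter. Iron regulatory proteins 1 and 2 (Aco1 and Ireb2) bind short RNA hairpins called iron-responsive elements (IREs) when iron is scarce, which blocks translation of ferritin and ferroportin from the 5′ UTR and protects Tfrc mRNA from decay through the 3′ UTR. NRAMP1 (Slc11a1) moves divalent metals out of the phagosome and limits the growth of engulfed microbes, and metallothioneins (Mt1 and Mt2) bind zinc, copper and cadmium. Neutrophils also withhold iron from microbes with lactoferrin and lipocalin 2.

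The hairpins of the members were read from the transcripts of GENCODE vM21 on GRCm38, as a C followed by 5 stem bases, a loop of CAGUG and any base, and 5 bases that pair with the stem, G with U included. Hairpins of this form were found in a UTR of 4 of the 10 members and of 160 of 21877 coding genes (0.731%). They are shown because the sensors Ireb2 and Aco1 act on these members through such hairpins. The form allows no mismatch or bulge, so elements of another shape are missed. A member without a match is therefore not shown to lack an IRE. Fth1 holds one in its 5′ UTR at chr19:9982738-9982754 on the plus strand, Ftl1 at chr7:45459785-45459801 on the minus strand and Slc40a1 at chr1:45925471-45925487 on the minus strand, and Tfrc holds 4 in its 3′ UTR on the plus strand, from chr16:32631225-32631241 to chr16:32631716-32631732. Capitals mark the CAGUG of the loop.
Fth1: cuucaaCAGUGcuugaa
Ftl1: cuucaaCAGUGuuugaa
Slc40a1: cagcuaCAGUGuuagcu
Tfrc at 32631225: cggaagCAGUGccuucc
Tfrc at 32631604: cgggagCAGUGucuucc
Tfrc at 32631669: cggagaCAGUGaucucc
Tfrc at 32631716: cgggaaCAGUGuuuccc
The hairpins of the ferritin chains differed at 1 base of 17, C12U from Fth1 to Ftl1 counted from 1 at the 5′ end, and that of Slc40a1 differed from Fth1 at 7.

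The metallothionein genes lie side by side on chromosome 8, with Mt2 5513 bases before Mt1 on the same strand. Metal response elements, the sites of the zinc sensor MTF1, were searched by their core TGCACNC or TGCGCNC on both strands. Of 58695 coding transcripts, 15.177% held any core in the first 150 bases of the transcript, whereas Mt1 held 4, a number reached by 0.055% of transcripts, and Mt2 held 3, reached by 0.388%. The annotated transcripts of both genes begin upstream of the letters TATAAA, at base 129 of Mt1 and base 90 of Mt2, so these cores stand before the TATA box inside the annotated first exon. The first bases of a transcript usually follow its start site, so the shares above compare unlike regions. They are shown as windows of 30 bases on the plus strand of GRCm38, at chr8:94179088-94179117 and chr8:94179170-94179199 for Mt1 and at chr8:94172673-94172702 and chr8:94172726-94172755 for Mt2, with the cores in capitals.
Mt1, first window: ctcTGCACTCcgcccgaaaagTGCGCTCgg
Mt1, second window: gctGGGTGCAaacccttTGCGCCCggactc
Mt2, first window: ggcGTGTGCAggcggcgggggcGCGTGCAt
Mt2, second window: tttTGCGCTCgacccaatactctccgctat
In the 250 bases before each start in the RefSeq promoter table (GRCm38.p6), the same core was found in 21.406% of 32851 windows. Of the members 8 matched that table, and the core was found for Mt1 (1 core), Mt2 (3 cores) and Tfrc (2 cores in 1 of its 2 windows). The antioxidant response element core TGACNNNGC was found in 10.161% of all windows and, among the members, for Mt2 alone. The hypoxia element core ACGTG or GCGTG, in 38.595% of all windows, was found for Fth1, Ftl1, Tfrc, Mt1 and Mt2. These are matches of letters and not measured binding sites.

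Libraries held between 32757389 and 41375925 counts on genes, and 3 counts, taken here as the floor of detection, were worth 0.0725 to 0.0931 CPM (counts relative to the library size scaled by TMM). Of the 29737 genes, 16761 passed the filter on low counts and were tested, among them 9 of the 10 members, all but Mt2. The 12 neutrophil markers summed to between 36507 and 54204 CPM, while 11 erythroid markers, hemoglobin included, summed to between 1.55 and 3.87 CPM, and 7 of them did not pass the filter. With Tβ-MCA, 4 of the 12 neutrophil markers were lower than with PBS (S100a8, Ly6g, Camp and Mmp9) and none was higher. Sample 5 with Tβ-MCA stood apart from the other two of its group and nearer to PBS in the marker Ccr2, at 29.2 CPM against 2.0 and 2.7 CPM, with 37.3 to 51.2 CPM in the PBS samples. Results are therefore also given without it. Since it was singled out in these data for lying nearer to PBS, leaving it out favors larger differences. The p-values without it are therefore not separate support. All comparisons with PBS share the same 3 PBS samples.

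Fth1 stood far above the other members in length-corrected level, with a deposited RPKM of 2296 ± 360.2 (SD, n = 3) in PBS, the 10th highest mean of the table. Ftl1 followed at 463 ± 56.6 RPKM, then Slc11a1 at 39.3 ± 4.39, Slc40a1 at 10.8 ± 0.893 and Tfrc at 7.26 ± 0.527 RPKM. Ferroportin thus had a higher level than the transferrin receptor in each PBS sample, and both lay far below ferritin. Mt1 (4.07 ± 1.32 RPKM) and Ireb2 (3.97 ± 0.286 RPKM) overlapped and could not be ordered, Aco1 reached 2.22 ± 0.306 RPKM, Slc11a2 0.554 ± 0.102 RPKM and Mt2 0.0940 ± 0.0916 RPKM. All other neighbors in this order had PBS values that did not overlap. Of each pair of related genes, 1 member therefore held most of the RPKM, the heavy over the light ferritin chain, Slc11a1 over Slc11a2, Ireb2 over Aco1 and Mt1 over Mt2. The order depends on the annotated lengths. That of Mt1, 1246 bases, covers its whole span on the chromosome, any introns included, so its RPKM may be too low for its mRNA.

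**Figure D1:**
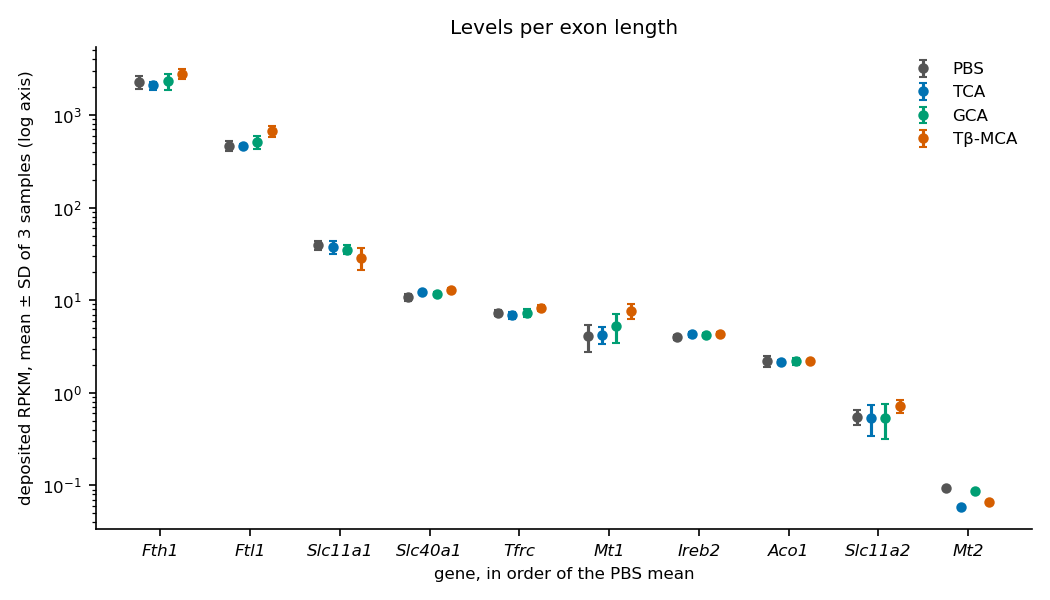
Deposited RPKM (log axis) of the 10 genes in order of their PBS mean, with points for the mean of 3 samples of each group and bars for the SD. Mt2 has no bars because samples at 0 cannot be drawn on a log axis, and the order from Fth1 (2296 RPKM in PBS) to Mt2 (0.0940 RPKM in PBS) spans the plot.

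Ftl1, the ferritin light chain, was the only member called in the fit of all 12 samples, and it was higher with Tβ-MCA. A member that was not called is not shown to be unchanged. Ftl1 was 549.5, 689 and 646 CPM in the PBS samples (3, 5 and 6), and 891, 980.0 and 755 CPM in the Tβ-MCA samples (3, 4 and 5). Each Tβ-MCA sample lay above each PBS sample, with sample 5 nearest to PBS. The rise was 1.39-fold (log2 0.48 ± 0.11 SE, 95% interval 0.23 to 0.72, edgeR quasi-likelihood test, adjusted p = 0.0290). It was the 1 call among 9 tested members, beside 7.62% of all genes called in this comparison (1278 of 16761). At an unadjusted p under 0.05 with a change of at least 2-fold, the study's cutoffs, 2.95% of genes passed and no member did. The call was lost when any of the other 5 samples was left out (adjusted p 0.0626 to 0.141), in the fit of the 2 groups alone (0.0620) and with the sample number as a block (0.0523), and without Tβ-MCA sample 5 the rise was log2 0.57 (adjusted p = 0.00278).

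TCA gave Ftl1 values of 606, 644 and 648 CPM, and GCA gave 589, 789 and 698 CPM. TCA values lay within the range of PBS, and GCA values reached from that range into the Tβ-MCA range. Ftl1 was 1.38-fold higher with Tβ-MCA than with TCA (log2 0.47 ± 0.11 SE, 95% interval 0.22 to 0.71, adjusted p = 0.0429), at labelled doses that differ, 10 and 200 µM. This was again the 1 member called in a comparison that called 3.51% of genes, and without Tβ-MCA sample 5 its adjusted p was 0.00364, while without any of the other samples it lay between 0.107 and 0.202. With the sample number as a block, 4 members passed against TCA, 3 higher and 1 lower, beside 13.9% of all genes. DESeq2 called 2 members there, both higher, beside 5.23% of all genes. Against GCA the Ftl1 difference of log2 0.34 (95% interval 0.09 to 0.58) did not pass the test (adjusted p = 0.221).

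The deposited annotation lets other genes share the reads of Ftl1, at chr7:45457944-45459884 on the minus strand of GRCm38. Gm10252, on the opposite strand, overlaps 26.5% of its 1340 exon bases and held between 49.6% and 53.6% as many counts, and Gm22133, of 109 bases, lies wholly inside its exons and held between 17.5% and 21.5% as many. The 3351 to 7397 counts per library of Gm22133 show that overlapping reads were not all discarded, and whether counting used the strand is not given in the sources used here. Gm10252 had a log2 change with Tβ-MCA of 0.46 (adjusted p = 0.0326), and over the 12 samples it was the tested gene whose log2 CPM was most like that of Ftl1 (Pearson r = 0.992), followed by Coro1c (0.988) and Npc1 (0.986). The copy Ftl1-ps1 held at most 7.67% as many counts as Ftl1 and the other annotated ferritin copies at most 0.490% of their parent.

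Fth1, the ferritin heavy chain, varied more between samples of a group than between most groups. It was 1704, 2308 and 2019 CPM with PBS, 1655, 1900.0 and 1926 with TCA, 1620.4, 2288 and 2162 with GCA and 2148, 2696 and 2264 CPM with Tβ-MCA. Sample 3 was the lowest in all 4 groups, and Tβ-MCA overlapped PBS but not TCA. The change with Tβ-MCA was log2 0.24 ± 0.14 SE against PBS (95% interval -0.07 to 0.54, adjusted p = 0.319) and 0.37 against TCA (adjusted p = 0.137). Against TCA the Tβ-MCA sample was the higher for each of the numbers 3, 4 and 5, and the difference passed in 2 of 13 alternatives, with the number as a block (adjusted p = 0.00497) and with no filter on low counts (9.67e-06).

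Because both chains build one shell, their ratio was compared within samples. The RPKM of Fth1 was 4.80, 5.18 and 4.84 times that of Ftl1 in the PBS samples, 4.23, 4.57 and 4.602 times with TCA, 4.26, 4.49 and 4.79 times with GCA and 3.73, 4.26 and 4.64 times with Tβ-MCA. Every bile acid sample lay below every PBS sample, for GCA only narrowly (highest GCA ratio 4.792, lowest PBS ratio 4.800). The Ftl1 values carry the overlap with Gm10252 and Gm22133 given above. The differences of the means from PBS were -0.73 with Tβ-MCA, -0.47 with TCA and -0.43 with GCA, each with p = 0.1 in an exact two-sided permutation test, the smallest p that 3 samples against 3 allow (adjusted over 6 comparisons, p = 0.2).

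**Figure D2:**
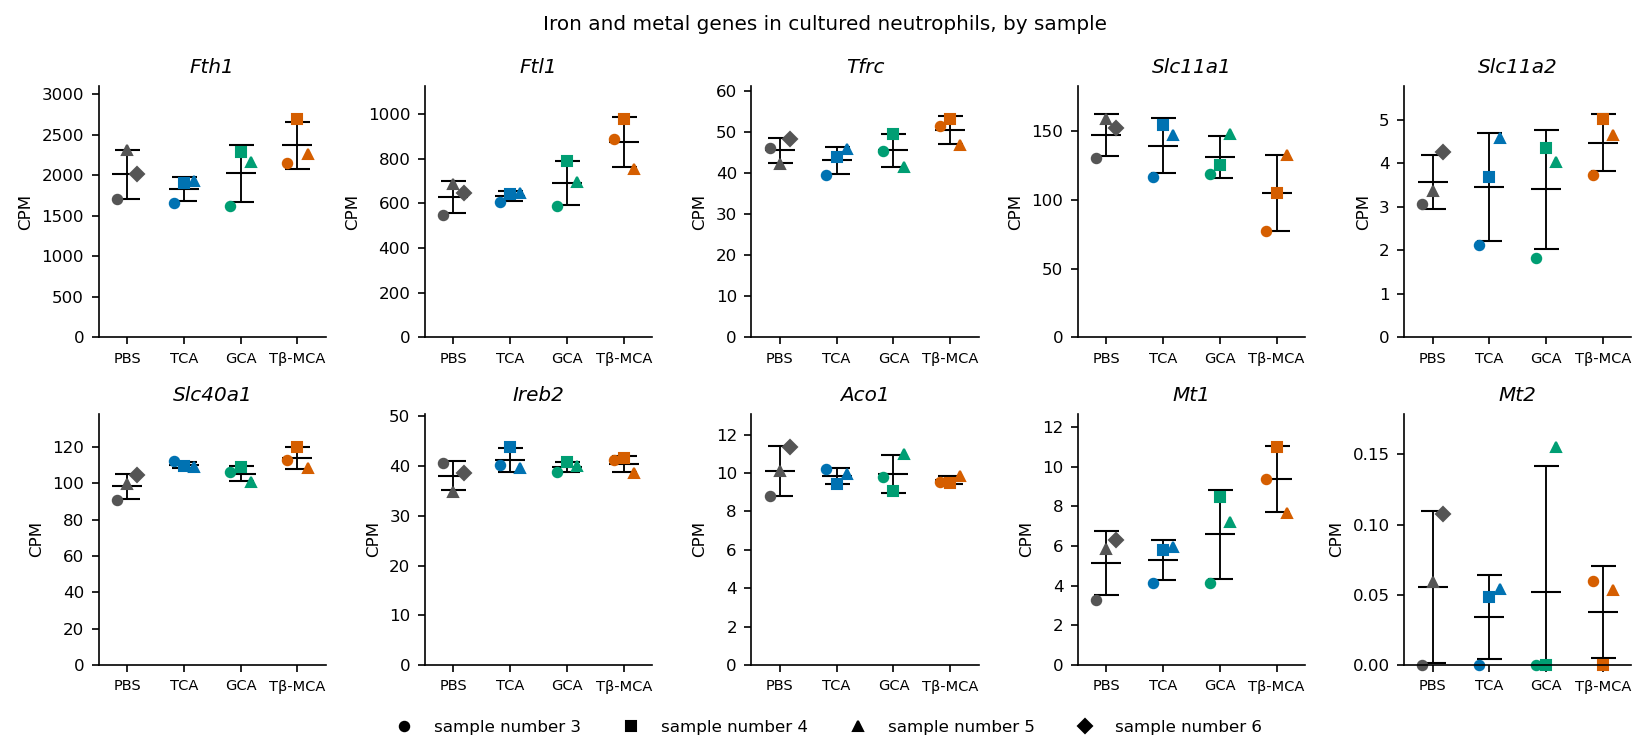
CPM (y axis, each from 0) of the 10 genes in each sample of the 4 groups, with the marker shape giving the sample number and the black bars the mean ± SD of 3 samples. Ftl1 and Mt1 with Tβ-MCA lie above all PBS points, and the circles of sample 3 are the lowest of every group in Fth1, Slc11a1 and Slc11a2.

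Of the uptake genes, none passed the test. Tfrc, the transferrin receptor at the cell surface, was 45.9, 42.05 and 48.3 CPM with PBS and 51.4, 53.1 and 46.7 CPM with Tβ-MCA, and the groups overlapped through sample 5. Its log2 change with Tβ-MCA was 0.15 ± 0.09 SE (95% interval -0.03 to 0.33, adjusted p = 0.300). Against TCA, with 39.4, 43.9 and 45.8 CPM, Tβ-MCA did not overlap, and the difference was 0.23 (adjusted p = 0.134). Slc11a2, which imports ferrous iron, was 3.07, 3.35 and 4.26 CPM with PBS and 3.74, 5.02 and 4.66 CPM with Tβ-MCA, an interval of the log2 change from -0.33 to 0.99. Sample 3 was the lowest for Slc11a2 in all 4 groups, down to 1.83 CPM with GCA, so a moderate change of this gene was not detectable at this spread. Gm5475, on the opposite strand, overlaps 6.33% of the exon bases of Slc11a2.

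Slc11a1, NRAMP1, had its lowest values with Tβ-MCA. It was 130.3, 159 and 153 CPM with PBS, 117, 155 and 147 with TCA, 119, 126 and 148 with GCA and 77.4, 105 and 133 CPM with Tβ-MCA. Samples 3 and 4 with Tβ-MCA lay below all others, while sample 5 overlapped PBS. The log2 change with Tβ-MCA was -0.49 ± 0.18 SE (95% interval -0.89 to -0.09, adjusted p = 0.126) and, without sample 5, -0.69 (adjusted p = 0.0119). It passed in 4 of 13 alternatives, which gave adjusted p from 1.95e-07 to 0.298, among them DESeq2 (0.0226).

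Monocyte and macrophage markers moved with Slc11a1, a gene that those cells express too. The 16 markers summed to 656, 791 and 797 CPM with PBS, 563, 770 and 792 with TCA, 615, 641 and 809 with GCA and 360.4, 464 and 687 CPM with Tβ-MCA. The 6 samples lowest in this sum were also the 6 lowest in Slc11a1, and Slc11a1 was 18.3% to 22.7% of the sum in each of the 12 samples. The sum rests mostly on Csf1r, Cd68 and Ly6c2 (215, 131 and 109 CPM in PBS sample 3), and single markers differed. In Tβ-MCA samples 3 and 4, Ccr2 was 2.0 and 2.7 CPM, against 37.3 to 51.2 with PBS. Cd68 was 107 and 166 CPM there, against 131 to 200.2 with PBS. The share is therefore no measure of the content of those cells. With Tβ-MCA all 16 markers had a log2 change below 0 and 2 passed the test, Ly6c2 (-0.94) and Vcam1 (-1.14), and none of the 16 was at 0 in all samples. The pattern was not particular to these markers. Samples 3 and 4 with Tβ-MCA were also the lowest of the 12 in the neutrophil sum (39735 and 36507 CPM). The same held for the sums of eosinophil (83.2 and 57.6 CPM), B cell (5.74 and 3.78), T and NK cell (0.897 and 1.19) and dendritic cell markers (20.9 and 15.1). It did not hold for erythroid (2.27 and 3.16 CPM) or basophil and mast cell markers (50.7 and 28.1 CPM). The basophil and mast cell sum was high in sample 3 of every group (50.1 with PBS, 52.9 with TCA, 52.2 with GCA). It was 25.1 to 31.1 CPM in all samples with other numbers. Of the 12 neutrophil markers, 11 had a log2 change below 0. In such bulk samples, fewer cells of a type and less RNA per cell cannot be told apart, and the part of other cells in the Slc11a1 values was not tested.

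**Figure D3:**
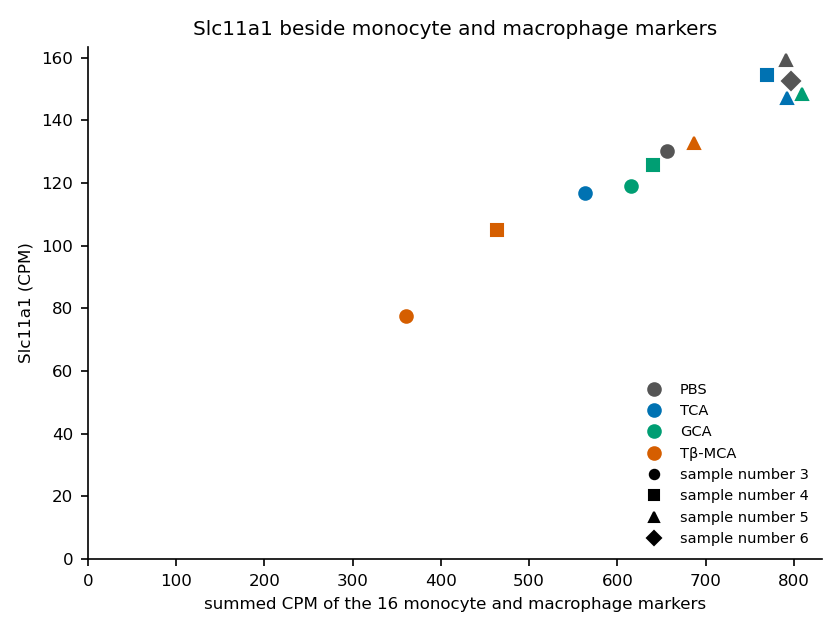
Slc11a1 in CPM (y axis) against the summed CPM of the 16 monocyte and macrophage markers (x axis), 1 point per sample, colored by group and shaped by sample number. Samples 3 and 4 with Tβ-MCA lie lowest on both axes, at 77.4 and 105 CPM of Slc11a1, and sample 5 with Tβ-MCA lies among the samples of the other groups.

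Slc40a1, ferroportin, had its lowest values with PBS. It was 90.6, 99.8 and 104.5 CPM with PBS, 112, 109.7 and 109 with TCA, 106, 109 and 101 with GCA and 113, 120.2 and 108 CPM with Tβ-MCA. All TCA and Tβ-MCA samples lay above all PBS samples, and GCA overlapped PBS. The log2 change was 0.21 ± 0.07 SE with Tβ-MCA (95% interval 0.07 to 0.35, adjusted p = 0.0620) and 0.16 ± 0.07 SE with TCA (95% interval 0.02 to 0.31, unadjusted p = 0.0246, adjusted p = 0.9999). The Tβ-MCA value passed in 4 of 13 alternatives (adjusted p 0.0266 to 0.256), which included DESeq2, total library size and the fit without Tβ-MCA sample 5.

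The sensors were level across the groups. Ireb2 lay between 34.9 and 43.9 CPM and Aco1 between 8.81 and 11.4 CPM in all 12 samples, and every group overlapped every other for Aco1. The intervals of the log2 change with Tβ-MCA were -0.07 to 0.25 for Ireb2 (adjusted p = 0.506) and -0.31 to 0.17 for Aco1 (adjusted p = 0.747). For both genes, the intervals against PBS with all 3 bile acids allowed a change of at most 1.24-fold in either direction.

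Mt1, a metallothionein, had the largest estimated change of the tested members with Tβ-MCA, from few reads. It was 3.27, 5.83 and 6.28 CPM with PBS, 4.16, 5.80 and 5.96 with TCA, 4.11, 8.48 and 7.21 with GCA and 9.39, 11.02 and 7.68 CPM with Tβ-MCA, or 114 to 408 counts per library. All Tβ-MCA samples lay above all PBS and all TCA samples, and GCA overlapped both. The difference from PBS was 1.82-fold (log2 0.87 ± 0.28 SE, 95% interval 0.26 to 1.48) and did not pass the test (adjusted p = 0.0809), and that from TCA was log2 0.82 (adjusted p = 0.112). The value against PBS passed in 4 of 13 alternatives (adjusted p 1.69e-06 to 0.265), among them DESeq2 (0.0156) and the fit without Tβ-MCA sample 5 (0.0455).

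Mt2 was at or near the floor. It had between 0 and 6 counts per library, 20 counts over the 12 samples and none in 5 of them, against 2868 counts of Mt1. All values above 0 were even, as were 74.2% of the values from 1 to 10 in the table. No fold change is given. Exons of RP23-98C9.5 on the opposite strand overlap 73.5% of the 588 exon bases of Mt2, and that gene held at most 6 counts in a library, so few reads were assigned to either gene.

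None of the 9 tested members passed against PBS with TCA (0% of all genes, 546 at an unadjusted p under 0.05) or GCA (0% of all genes, 591 at an unadjusted p under 0.05), and Slc40a1 with TCA was the 1 member under an unadjusted p of 0.05. The 95% intervals still allowed changes of up to 1.97-fold with GCA, for Mt1, and of up to 1.63-fold with TCA, for Slc11a2. At the study's cutoffs 0.465% of genes passed with TCA and 0.531% with GCA, and no member. The groups did not overlap for 1 member with TCA, Slc40a1 (9.67% of all genes), for 0 members with GCA (9.55% of all genes) and for 3 members with Tβ-MCA, Ftl1, Mt1 and Slc40a1, all higher, beside 27% of all genes. Against TCA, 4 members did not overlap with Tβ-MCA, Ftl1, Mt1, Fth1 and Tfrc, beside 25.3% of all genes. Nothing is read from these counts about the members as a group.

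**Figure D4:**
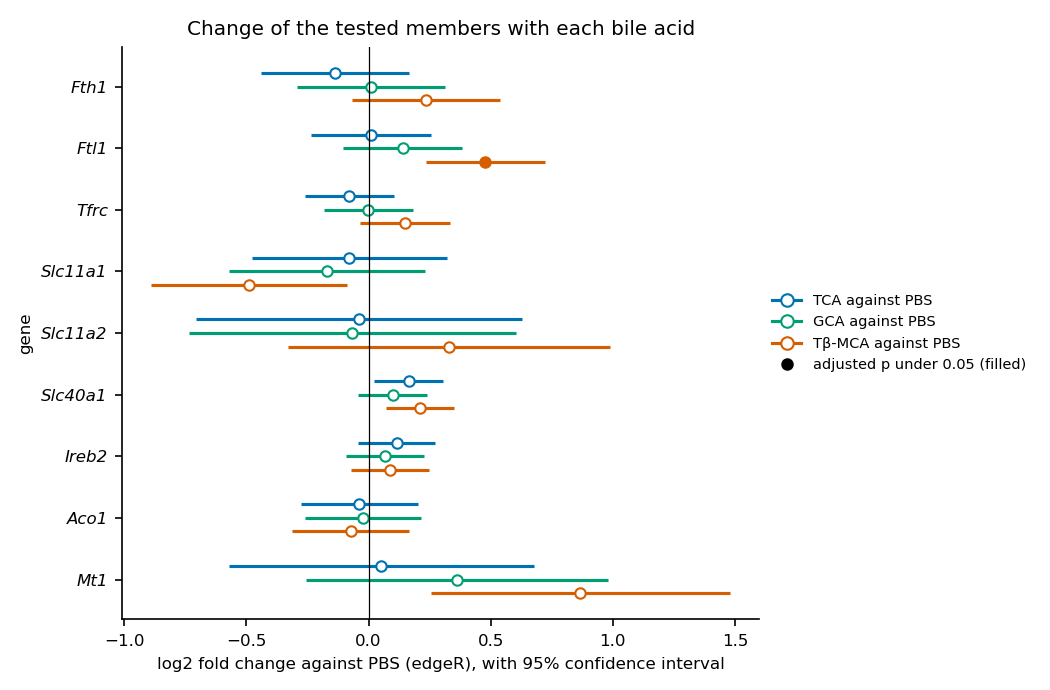
Log2 fold change against PBS (x axis) of the 9 tested genes with TCA, GCA and Tβ-MCA, with points for the edgeR estimate, lines for its 95% confidence interval and filled points for an adjusted p under 0.05. Ftl1 with Tβ-MCA (0.48) is the 1 filled point, and the intervals of Mt1 and Slc11a2 are the widest.

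GCA and TCA, given at the same labelled dose for the same time, join the same bile acid to glycine and to taurine. None of the 9 members passed between them (0% of all genes, 412 at an unadjusted p under 0.05), and the smallest unadjusted p was 0.272. The estimates ran from log2 -0.09 for Slc11a1 to 0.31 for Mt1. The interval bound furthest from 0, that of Mt1, allowed a difference of up to 1.90-fold, so smaller differences between the conjugates are not shown to be absent. Between Tβ-MCA and GCA, at labelled doses that differ, no member passed (0% of all genes, 2598 at an unadjusted p under 0.05), and Ftl1 was the 1 member under an unadjusted p of 0.05. Same-numbered samples of these groups deviated together from their group means, and with the number as a block 332 genes passed (1.98%), again without a member (adjusted p of Fth1 0.0686, of Ftl1 0.0955). In that fit 5 of the 9 members had an unadjusted p under 0.05, Fth1, Ftl1, Slc11a2 and Mt1 higher and Slc11a1 lower with Tβ-MCA, beside 3718 of all genes (22.2%).

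Around the members, 149 further genes of iron, heme, zinc and copper handling were read from 12 lists, of which 146 were in the table and 125 were tested. With Tβ-MCA, 6 of the 125 rose and 6 fell, 9.6% against 7.62% of all genes, and the median log2 change was -0.02 against 0.00 over all genes. With TCA and with GCA none passed, and 3 genes each (2.4%) had an unadjusted p under 0.05, beside 3.26% and 3.53% of all genes. DESeq2 called 17 of the 146 list genes it fitted with Tβ-MCA (11.6%), beside 2035 of all 29732 genes it fitted (6.84%), and no list gene with TCA or GCA, where it called 1 and 0 genes in all.

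The 6 list genes that rose with Tβ-MCA came from 6 lists. Mcoln1, a lysosomal channel that releases iron, rose 1.45-fold, from 90.5 ± 5.81 to 131 ± 20.9 CPM (SD, n = 3, adjusted p = 0.0208). Slc31a2, which releases copper from endosomes, rose 1.40-fold, from 133 ± 12.5 to 187 ± 26.4 CPM (adjusted p = 0.0235). Slc48a1, a heme transporter of lysosomes, rose 1.35-fold from 30.1 to 40.8 CPM (adjusted p = 0.0328). Pcbp2, an iron chaperone, rose 1.25-fold from 165 to 206 CPM (adjusted p = 0.0301). Fech, which inserts iron into heme, rose 1.32-fold (adjusted p = 0.0435) and Fdxr, ferredoxin reductase of the mitochondrion, 1.34-fold (adjusted p = 0.0475).

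The 6 list genes that fell with Tβ-MCA also came from 6 lists, and some are granule proteins of neutrophils. Hp, haptoglobin, which binds free hemoglobin, went from 1446 ± 51.2 to 1066 ± 135.5 CPM (log2 -0.44, adjusted p = 0.0208). Lcn2, lipocalin 2, which binds bacterial siderophores, went from 1882 ± 111 to 1542 ± 45.5 CPM (log2 -0.29, adjusted p = 0.0404). Ltf, lactoferrin, the most abundant gene of the same list at 1195 ± 284 RPKM in PBS, had a log2 change of -0.86 that did not pass (adjusted p = 0.0743). The 12 neutrophil markers summed to between 44601 and 54204 CPM with PBS and between 36507 and 41199 CPM with Tβ-MCA, and Camp (log2 -1.14), a granule protein, and Ly6g (-0.99) fell beside these genes. Their part in the values of Hp, Lcn2 and Ltf was not tested. Steap4, a metal reductase (log2 -1.10, adjusted p = 0.0331), Slc39a4, a zinc importer (-0.94, adjusted p = 0.0208), Slc31a1, the copper importer (-0.38, adjusted p = 0.0357), and Alas1, the first enzyme of heme synthesis (-0.33, adjusted p = 0.0350), also fell. Steap4 and Slc39a4 had under 7 CPM in each sample.

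Between the lists, the calls with Tβ-MCA were spread thinly. There was 1 gene up and 1 down of 10 in iron uptake, of 12 in heme uptake and breakdown, of 13 in heme synthesis and of 12 in copper handling, 1 up of 5 in iron storage and of 23 in mitochondrial iron, and 1 down of 3 in iron export and sequestration and of 16 in zinc transport. None was called of 11 in iron sensing and IRE targets, of 9 in the hepcidin axis, of 9 in cytosolic iron-sulfur assembly and of 2 in metallothionein regulation, and of the list genes Alas2 also stood among the erythroid markers and Cd163 among those of macrophages. The highest genes of their lists by RPKM were otherwise not called, among them Sod1 (log2 0.36, adjusted p = 0.307), Slc39a7 (-0.14, 0.211), Snx3 (-0.15, 0.349), Pcbp1 (-0.16, 0.221), Iscu (-0.23, 0.353), Fam96a (-0.36, 0.0644), Fbxl5 (-0.05, 0.696), Smad4 (-0.01, 0.957) and Mtf2 (0.01, 0.947). Against TCA, 3 list genes passed (2.4%, beside 3.51% of all genes), Mcoln1 (log2 0.55, adjusted p = 0.0323), Slc31a2 (0.52, 0.0346) and Hp (-0.33, 0.0478). Against GCA none passed, and 19 had an unadjusted p under 0.05 (15.2%, beside 15.5% of all genes). DESeq2 called 2 (1.37%, beside 0.985% of all genes), and 3 passed with the number as a block (2.4%, beside 1.98%). Without Tβ-MCA sample 5, 30 of 128 list genes passed against PBS (23.4%) beside 3076 of 17131 genes in all (17.96%), and without any 1 of the other samples between 0 and 2 did.

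**Figure D5:**
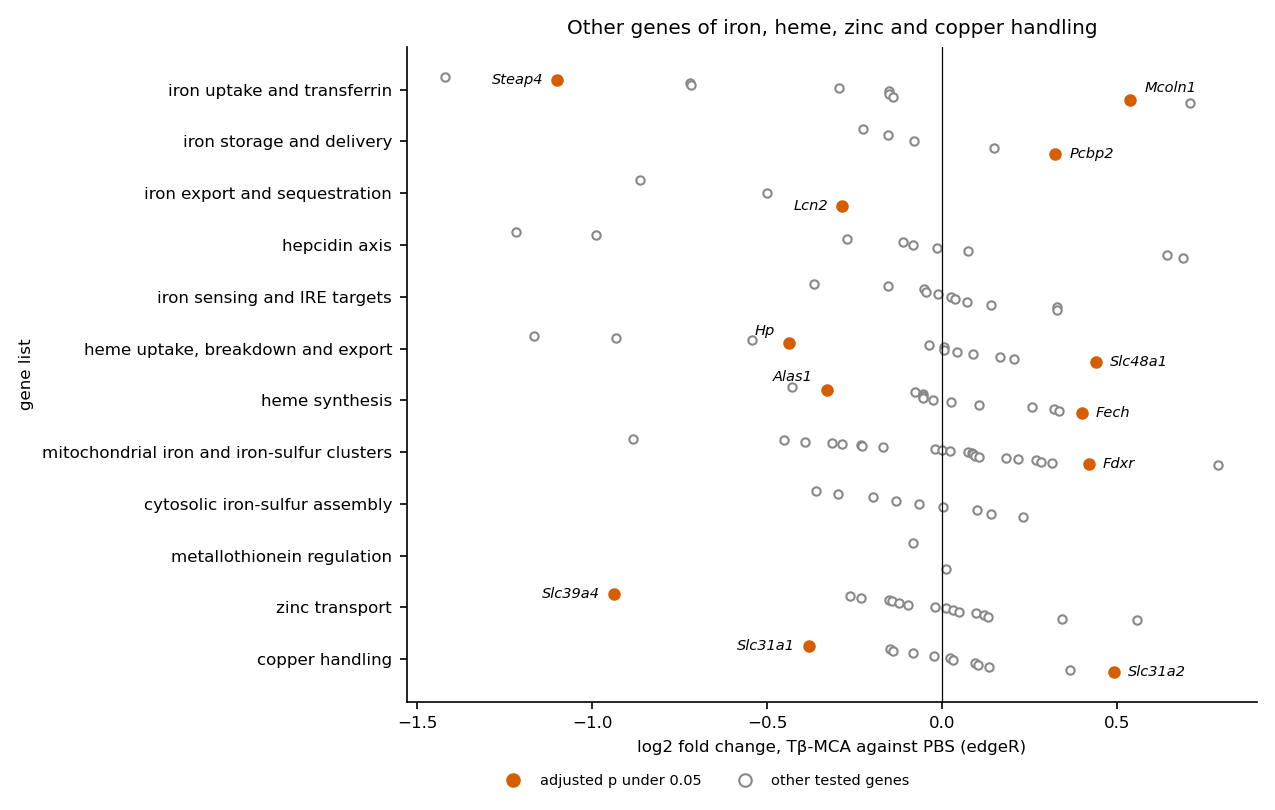
Log2 fold change with Tβ-MCA against PBS (x axis) of the 125 tested genes in 12 lists (y axis), 1 point per gene, with filled points for an adjusted p under 0.05. The 12 filled points split into 6 above and 6 below 0, from Steap4 (-1.10) to Mcoln1 (0.54).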

How the data were processed

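mRNA of 12 samples was sequenced with a stranded kit. Per the submitters' processing notes, the authors used Trimmomatic 0.36, STAR 2.5.3a and featureCounts of Subread 1.5.1 with GRCm38, and deposited raw read counts per gene with RPKM values. The handling of strand, multi-mapping and overlapping reads is not given in the sources used here. RPKM recomputed from the counts differed from the deposited RPKM by a relative difference of at most 1.3e-06.

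Counts were tested with edgeR 4.0.16 (R 4.3.3), using TMM, filterByExpr and the robust quasi-likelihood test in 1 fit of all 12 samples by group, with Benjamini-Hochberg adjustment over 16761 genes and calls at an adjusted p under 0.05. The study's methods name edgeR, a p of 0.05 and a fold of 2. RPKM served for levels between genes and were not tested. Alternatives were DESeq2 1.42.0, total library size, no filter, at least 10 counts in every sample, 2 groups alone, the sample number as a block, the study's cutoffs and each sample left out, and, added after the data were seen, all samples numbered 3 left out.

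All 10 members were named. List genes were named by the lowest p among those called (up to 15 with Tβ-MCA against PBS, 5 elsewhere), with the highest by RPKM of each list. Members and lists were chosen with earlier results of these data known. Floors and intervals of counts cover counting error only. Same-numbered samples of Tβ-MCA and GCA correlated in their deviations from group means (r 0.197 to 0.239 over 3 pairs), which was taken as pairing. Every other comparison shared only 2 numbers or had a pair with r under 0.1, and the numbers were not taken as pairing there. That rule does not show that those samples were unpaired. Samples numbered 3 correlated between all 4 groups (r 0.197 to 0.326). Tβ-MCA and TCA share the numbers 3, 4 and 5 (r 0.262, 0.0805 and 0.106). With the number as a block, 2322 genes and 4 members passed between them, against 588 and 1 without it. Comparisons with Python 3.11.15 and scipy 1.17.1 used exact permutation tests.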

Additional observations from a re-analysis of the deposited data

How the results depend on the processing

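Most counts rest on the library left out and on the model. Members called with Tβ-MCA against PBS numbered 1, but 4 with DESeq2, 4 with no filter, 3 with the replicate block, 2 with total library size, and 0 with only the 2 groups or at the study's cutoffs, and 0 to 4 when samples were left out, with 4 reached without Tβ-MCA sample 5. List genes called there numbered 12, but 23 with no filter, 0 with only the 2 groups and 3 at the study's cutoffs, and 0 to 30 with samples left out. Genes called numbered 1278, but 2035 with DESeq2, 2406 with no filter, 0 with only the 2 groups and 494 at the study's cutoffs, and 0 to 3076 with samples left out. Tβ-MCA against TCA gave 1 member, but 2 with DESeq2, 4 with no filter, 4 with the replicate block, 0 with only the 2 groups and 0 at the study's cutoffs (0 to 2 with samples left out), 3 list genes, but 9 with DESeq2, 21 with no filter, 19 with the block and 0 with only the 2 groups (0 to 21), and 588 genes, but 1556 with DESeq2, 2077 with no filter, 2322 with the block and 72 with only the 2 groups (0 to 2619). Tβ-MCA against GCA gave no member, but 4 with no filter (0 to 1 with samples left out), no list gene, but 2 with DESeq2, 9 with no filter, 1 at the study's cutoffs and 3 with the block (0 to 12), and no gene, but 293 with DESeq2, 1203 with no filter, 265 at the study's cutoffs and 332 with the block (0 to 1639). TCA against PBS gave 1 gene with DESeq2, 37 with no filter, 3 with the block, and 78 genes and 1 list gene at the study's cutoffs, GCA against PBS gave 36 genes with no filter and 89 at the study's cutoffs, and GCA against TCA gave 42 and 74 (0 to 4 with samples left out). No member was called in these last 3 comparisons under any alternative. The causes were not tested.

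Of 756 member values under alternatives, 713 kept their side of the threshold, 17 lost the call, 26 gained it and none that passed changed sign. In 51 others the sign changed while neither value passed. In the replicate block, PBS sample 6 shares its number with no other sample and adds nothing to a contrast. Same-numbered samples had a mean correlation of 0.189 over 15 pairs against -0.07 over 39 other pairs, a hint from the data only. Leaving out a PBS or Tβ-MCA sample leaves 2 in that group.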
